A study of Mus musculus with 36 samples.

Results

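The genes described here are the mouse potassium channel genes, taken as every symbol in the count tables that begins with Kcn. There were 98 such symbols among 40205 features, and 96 were kept after the antisense transcripts Kcnq1ot1 and Kcnd3os were left out. By symbol, 40 of the 96 were voltage-gated channel genes (Kcna to Kcnd, Kcnf to Kcnh, Kcnq, Kcns and Kcnv). Another 15 were inward rectifiers (Kcnj), 14 two-pore channels (Kcnk) and 17 auxiliary subunits or regulators (Kcnab, Kcne, Kcnip, Kcnmb and Kcnrg). A further 8 were channels of the Slo and SK families (Kcnma, Kcnn, Kcnt and Kcnu). These 8 are called the calcium-activated class here by family, not by what opens each of them. The remaining 2, Kcnmb4os1 and Kcnmb4os2, are opposite-strand RNAs whose symbols pass the rule and which belong to no channel class. The libraries came from neural stem cells of the dorsal telencephalon of C57BL/6J mouse fetuses at gestational day 12.5, grown as neurospheres in mitogen-containing medium. The labels give the genotype as WT, and the study's methods name the mice as the Ai14 line, which carries a Cre-dependent fluorescent reporter. Tissue of a pregnancy was pooled by sex, so 3 pregnancies (sets 3, 4 and 5) gave 3 female and 3 male cultures, and every culture was kept for 5 days with no ethanol (control), with 120 mg/dL or with 320 mg/dL. Each culture and dose gave 1 library of total RNA, depleted of ribosomal RNA, from the cells and 1 from the extracellular vesicles (EVs) pelleted out of its medium, 36 libraries in all, with 3 in each group of source, sex and dose.

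A potassium channel lets potassium ions leave or enter a cell along their electrochemical gradient, which sets the resting potential and ends action potentials. Voltage-gated channels open on depolarisation, inward rectifiers pass current near rest, two-pore channels carry a background leak, and the calcium-activated SK and BK channels open when intracellular calcium rises. Neural stem and progenitor cells have a hyperpolarised resting potential held largely by leak and inward-rectifier channels, whereas most voltage-gated members are best known from differentiated neurons. EVs are membrane-bound particles that carry RNA and protein out of the cell.

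The pore-forming members share a short coding sequence that the choice by symbol did not use, and it is shown here because it separates the channels proper from the auxiliary genes among the members. In the canonical transcripts of GENCODE vM39 on GRCm39, a threonine or serine, then valine, isoleucine or leucine, glycine, tyrosine, phenylalanine or leucine, and glycine, the known potassium selectivity filter, was encoded by all 77 pore-forming members and by 0 of 17 auxiliary members, and 11 of the 14 two-pore genes held it in 2 places. The same pattern occurred in 1.34% of 21593 protein-coding genes with the members included, and in 0.991% of those outside the members. The stretches below, in coding orientation with the 5 filter codons in capitals, are those of members that the EV comparison turns on, and the member names are followed by the stretch on GRCm39.
Kcnc1, chr7:46077388-46077417, plus strand: accatgacgACACTGGGCTATGGAgacatg
Kcnh5, chr12:75134234-75134263, minus strand: agccttacaACCATAGGATTTGGAaacata
Kcnk9, second pore, chr15:72384562-72384591, minus strand: acattgactACTATAGGGTTCGGCgatttt
Kcnk3, second pore, chr5:30779537-30779566, plus strand: accctcaccACCATCGGCTTCGGCgactat
Kcnj2, chr11:110963024-110963053, plus strand: acccagacaACCATTGGCTATGGTttcagg
Each stretch lies inside 1 coding exon. Kcnc1, Kcnh5 and Kcnk9 were higher in EVs than in cells, and Kcnk3 and Kcnj2 were lower, as described next.

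Deposited gene counts summed to between 959217 and 5509952 per EV library and between 26566061 and 55282322 per cell library, so 1 count in an EV library stands for far more of the library than 1 count in a cell library. Of the 8 markers listed for the labelled cell type, Vim, Fabp7 and Nes were high in cells (medians of 1168, 721 and 257 CPM, which are counts scaled to a common library size by trimmed means), Pax6, Hes1, Hes5 and Emx2 had medians of 16.3, 16.01, 13.4 and 4.99 CPM, and Sox2 was at 0 counts in all 36 libraries. The summed median of the 8 was 923 CPM in EVs and 2126 CPM in cells. Hes5 went the other way, with a median of 48.9 CPM in EVs, and the others with counts had lower medians in EVs. The astrocyte marker Aqp4 and the microglial marker P2ry12 were also at 0, as were the potassium channel members Kcne4, Kcnj1, Kcnj13, Kcnmb1, Kcnrg and Kcnmb4os1. In the annotation Kcnmb1 lies inside the span of Kcnip1, and Kcnj13 inside that of Gigyf2. Of 456 protein-coding genes that lie inside the span of another such gene with no overlap of canonical exons, 56.4% were at 0 in every library, against 4.0% of the 18620 genes that do not. Whether reads in introns entered the counts, and whether strand was used, is not given in the sources used here. A count of 0 for a nested gene is therefore not read as absence, and the counts of the 49 members with an exon opposite to another gene's are uncertain to that extent.

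The first comparison asked which potassium channel genes were more abundant in EVs than in their cells of origin. Of the 96 members, 68 passed the filter on low counts (more than 0.6235 CPM in at least 15.6 libraries, that is 16), and were tested with edgeR's quasi-likelihood test on 18 EV against 18 cell libraries. At an adjusted p under 0.05 over 15281 features, 44 members were higher in EVs, where the background over all tested features was 38.4%, and 8 were lower, where the background was 42.2%. The other 16 were not called. The median log2 fold change of the tested members was 1.05, against -0.08 over all features. That order was not kept when features with low counts stayed in. With no filter these 68 members had a median of 0.39, against 0.46 over 31069 features. With DESeq2, also unfiltered, it was 1.11, against 1.73 over 30942 features. In both cases members that passed the filter are set beside features that did not have to, so neither is a like comparison. The median of the members without the filter was not computed. DESeq2 kept the call and direction of all 52 called members, where 54.8% of its features were higher and 20.4% lower. A member that passed because it was high in EVs had to differ, so members that passed the limit in EVs and in cells separately are the safer set: these were 45, of which 32 were higher, 5 lower and 8 not called, with a median of 1.05. The shares and median of all features that passed in the same way were not computed. The backgrounds above are for all 15281 features, so they are not a like comparison for these 45. Another 8 passed through the EV libraries alone and 6 through the cell libraries alone.

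**Figure D1:**
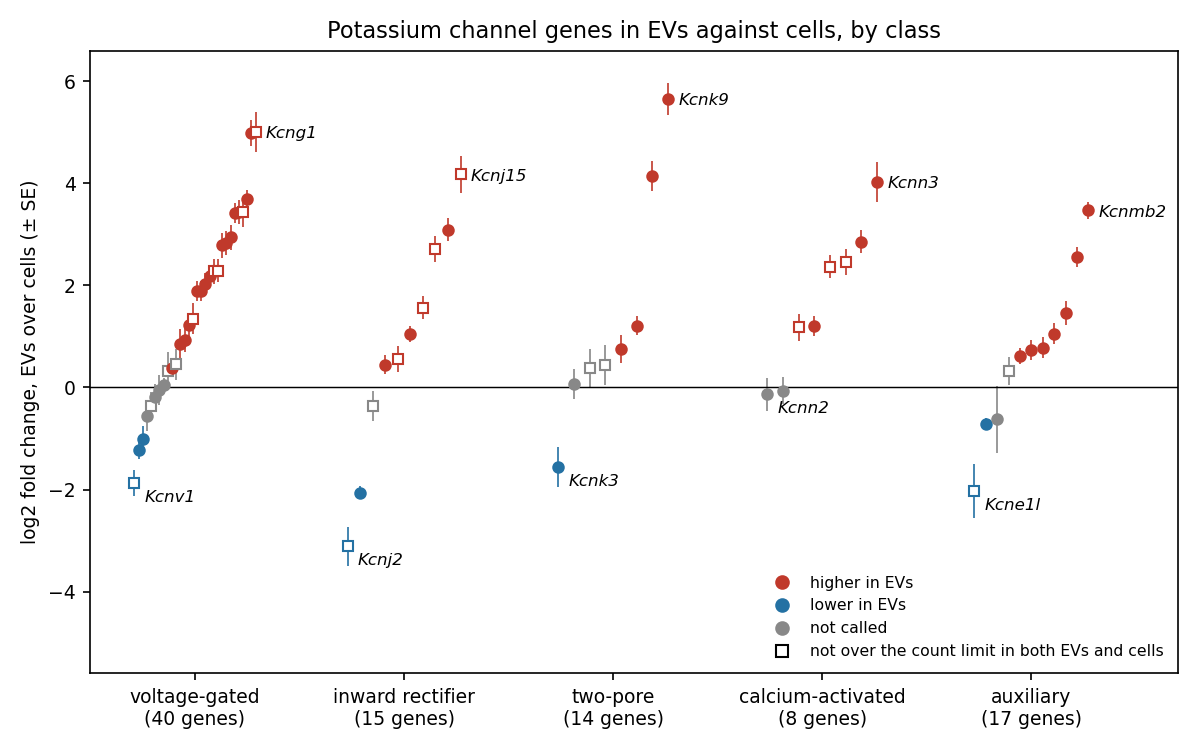
Log2 fold change of EVs over cells (vertical axis, ± SE) for the tested members of each class; red is higher in EVs, blue is lower, grey is not called, and open squares did not pass the count limit in both EVs and cells. Every class has members far above 0, up to Kcnk9 at 5.66, and the calcium-activated class has no member called lower.

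In each class more members were higher than lower. Of 30 tested voltage-gated members, 20 were higher in EVs and 3 lower (median log2 fold change 1.62), and of 8 tested calcium-activated members 6 were higher and 0 lower (median 1.79). Of 10 tested inward rectifiers 7 were higher and 2 lower (median 0.80), of 8 two-pore members 4 were higher and 1 lower (median 0.60), and of 11 auxiliary members 7 were higher and 2 lower (median 0.73). Some of these members passed the count limit in 1 source alone. Of those that passed in EVs and cells separately, 15 of 21 voltage-gated members were higher and 2 lower (median 1.89). For the calcium-activated class it was 3 and 0 of 5 (median 1.21), and for inward rectifiers 3 and 1 of 4 (0.75). Two-pore members gave 4 and 1 of 6 (0.98) and auxiliary members 7 and 1 of 9 (0.78). Differences between classes were not tested. Summed over a library, the voltage-gated members ran from 747 through 1108 to 1337 CPM in EVs and from 275 through 536 to 760 CPM in cells, and the groups overlapped only at their edges. The calcium-activated members ran from 51.4 through 365 to 559 CPM in EVs and from 29.0 through 64.7 to 107 CPM in cells, and most of that sum in EVs was Kcnn3. The inward rectifiers were the class whose summed median was lower in EVs (53.0 CPM) than in cells (67.0 CPM) although more of its members were higher than lower. Within the voltage-gated class all 4 Kv3 (Shaw) genes were higher, with a median of 2.81, and 6 of 7 tested members of the EAG, ERG and ELK family were higher and 0 lower, with a median of 1.90. The 3 Kv4 (Shal) genes stood apart, with 1 lower, 0 higher and a median of 0.05. The counts depended on how libraries were scaled. With library totals in place of trimmed means, 29 of 68 members were higher and 19 lower, where 22.5% of all features were higher and 60.7% lower. With no filter on low counts 49 of 90 were higher and 19 lower, where 40.7% of all features were higher and 30.2% lower. With library totals the median of all features moved from -0.08 to -0.88 and that of the members from 1.05 to 0.21. On that scale the medians of the inward rectifier (-0.03), two-pore (-0.23) and auxiliary (-0.07) classes were below 0, and those of the voltage-gated (0.79) and calcium-activated (0.94) classes stayed above.

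The channel with the highest level per kb of transcript in EVs was Kcnn3, which encodes the small-conductance calcium-activated channel SK3. Its 18 EV libraries ran from 11.9 through a median of 331 to 476 CPM, and its 18 cell libraries from 5.09 through 18.4 to 29.2 CPM. It was 16.3-fold higher in EVs (log2 fold change 4.03, SE 0.39, edgeR adjusted p = 1.1e-11), and higher in 17 of 18 matched pairs. Its EV values fell in separate ranges. In 14 EV libraries it lay between 280 and 476 CPM, and in the other 4, which were the set 4 female culture at 0, 120 and 320 mg/dL (22.1, 13.3 and 11.9 CPM) and the set 3 male culture at 120 mg/dL (18.2 CPM), it lay at the level of the cells. The cell libraries of the same culture and dose held 18.2, 12.1, 17.5 and 10.0 CPM, inside the range of the others. All 4 were among the 6 EV libraries with the fewest counts (959217 to 1605442), but the other 2 of those 6 were not low, with 462 CPM in the set 3 female control and 331 CPM in the set 3 male culture at 320 mg/dL. Without the 6 shallow EV libraries and their cell partners the log2 fold change was 4.24. Depth and culture could not be told apart for the set 4 female culture, whose 3 EV libraries were all shallow.

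**Figure D2:**
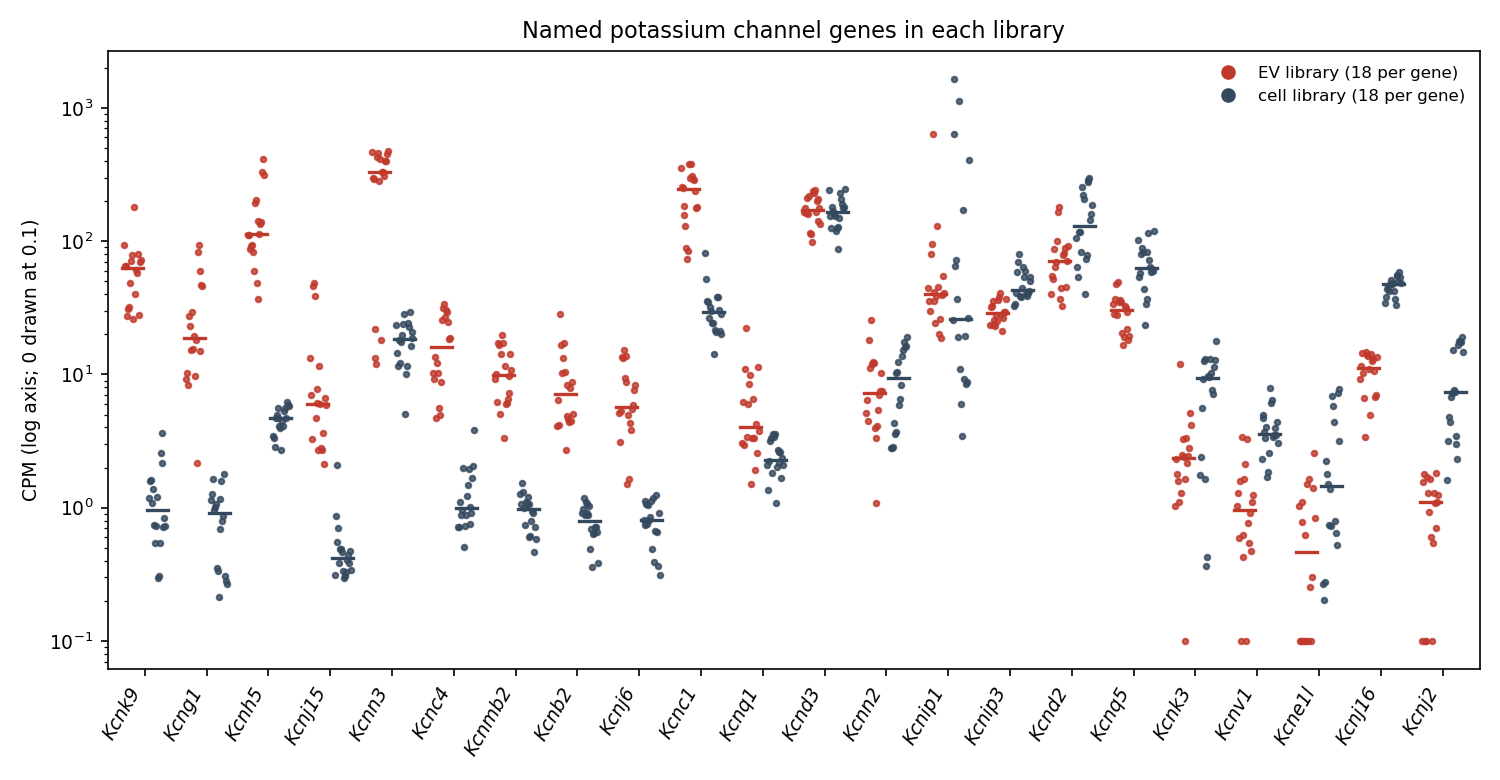
CPM (log axis, 0 drawn at 0.1) of the named members in the 18 EV (red) and 18 cell (dark) libraries, with bars at the medians and genes ordered by fold change. Kcnn3 shows 14 EV libraries at 280 CPM or more and 4 at 22.1 CPM or less, and Kcnip1 spreads in cells from 3.45 to 1649 CPM.

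Among the other calcium-activated members, Kcnn2 (SK2) was not called. Its EV libraries ran from 1.09 through 7.25 to 25.5 CPM and its cell libraries from 2.79 through 9.33 to 19.1 CPM (log2 fold change -0.14, SE 0.32, adjusted p = 0.702). The ranges overlapped almost fully. By culture, EVs were above cells in the female cultures of sets 3, 4 and 5 (5.34 against 2.82, 18.2 against 3.88 and 12.2 against 11.1 CPM) and below them in the male cultures (2.78 against 6.93, 5.51 against 15.4 and 8.44 against 17.2 CPM), a difference between the sexes that was not tested. Under library totals Kcnn2 was called lower in EVs (log2 -1.003, adjusted p = 0.00262), as it was with no filter on low counts (-0.81, adjusted p = 0.00998). Kcnma1, the BK channel, was the other calcium-activated member not called, with 9.69, 27.9 and 209 CPM (lowest, median and highest) in EVs and 13.4, 32.7 and 73.2 CPM in cells (log2 -0.07, SE 0.27), and EVs were higher in 5 of 18 pairs. Kcnma1 is named outside the rule for named genes, to account for its class.

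The largest fold change of any member was that of Kcnk9, the two-pore acid-sensitive leak channel TASK-3. Its EV libraries ran from 26.0 through 62.7 to 179 CPM and its cell libraries from 0.30 through 0.96 to 3.62 CPM, so that every EV library lay above every cell library. It was 50.5-fold higher in EVs (log2 5.66, SE 0.32, adjusted p = 4.85e-18), and the log2 value was 5.37 to 6.34 when any one pregnancy was left out. Its close relative Kcnk3 (TASK-1) went the other way. Kcnk3 ran from 0 through 2.37 to 11.9 CPM in EVs and from 0.37 through 9.41 to 17.8 CPM in cells (log2 -1.56, SE 0.39, adjusted p = 4.49e-04). The EV library was the lower one in 16 of 18 pairs. With the 120 or the 320 mg/dL libraries alone the fall of Kcnk3 was no longer called (adjusted p = 0.0667 and 0.0912). Without set 4 the log2 value of Kcnk3 was -1.09, and it was still called.

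In the voltage-gated class the largest change was that of Kcng1, a silent subunit that modifies Kv2 channels. Its EV libraries ran from 2.18 through 18.8 to 93.3 CPM and its cell libraries from 0.21 through 0.92 to 1.78 CPM (32.2-fold, log2 5.01, SE 0.40, adjusted p = 5.92e-14). Every EV library was above every cell library, but Kcng1 passed the count limit through its EV libraries alone. Kcnh5, the ether-a-go-go channel Eag2, was at 36.6, 113 and 416 CPM (lowest, median and highest) in EVs and at 2.7, 4.69 and 6.21 CPM in cells. It was 31.7-fold higher in EVs (log2 4.99, SE 0.26, adjusted p = 3.51e-19), without overlap between the groups. The 3 libraries at 313 CPM or more were those of the set 5 male culture. Kcnc1 (Kv3.1), a channel of fast-firing neurons, reached 229 ± 99.4 CPM over the EV against 31.9 ± 15.1 CPM over the cell libraries (SD, n = 18) and was higher in 18 of 18 pairs (log2 2.83, SE 0.23, adjusted p = 1.11e-13). Its relative Kcnc4 (Kv3.4) was lower in level but more shifted, with 4.73, 15.99 and 33.9 CPM in EVs and 0.51, 0.99 and 3.85 CPM in cells (log2 3.69, SE 0.19, adjusted p = 5.85e-19). Kcnb2 (Kv2.2), a delayed rectifier, ran from 2.72 through 7.18 to 28.4 CPM in EVs and from 0.36 through 0.80 to 1.18 CPM in cells (log2 3.41, SE 0.20, adjusted p = 9.49e-18). For Kcnc4 and Kcnb2 the EV and cell groups did not overlap.

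Kcnd3 and Kcnd2 of the Kv4 family and Kcnq5 of the KCNQ family had the highest mean CPM of the voltage-gated class in cells, and none of them was called higher in EVs. Kcnd3 (Kv4.3), which carries A-type current, had a mean of 175 ± 43.4 CPM over the EV and of 168 ± 43.8 CPM over the cell libraries (SD, n = 18). The log2 difference was 0.05 (SE 0.13) with an edgeR adjusted p of 0.709. Its sign flipped under library totals, where it was -0.72, with no filter on low counts (-0.60), without set 3 (-0.13) and without the shallow EV libraries (-0.08). Kcnd2 (Kv4.2) ran from 32.8 through 70.4 to 180 CPM in EVs and from 40.2 through 130 to 300 CPM in cells. It was lower in EVs in 18 of 18 pairs, although the groups overlapped (log2 -1.02, SE 0.26, adjusted p = 6.83e-04). In the 120 or 320 mg/dL libraries alone it was not called (adjusted p = 0.0600 and 0.157). Kcnq5 (Kv7.5), an M-current subunit, fell from 68.8 ± 27.0 CPM in cells to 29.9 ± 9.54 CPM in EVs (log2 -1.23, SE 0.18, adjusted p = 9.65e-08). Kcnq1 of the same family was higher in EVs, by log2 1.22 (SE 0.23, adjusted p = 1.09e-05). It was not called under library totals (0.41) or in the control libraries alone (0.82). The silent subunit Kcnv1 was lower in EVs, at 1.17 ± 0.963 against 3.96 ± 1.603 CPM (log2 -1.88, SE 0.26, adjusted p = 3.3e-08), in 18 of 18 pairs. Kcnv1 had at most 7 counts in any EV library. It passed the count limit through the cell libraries alone, so the filter favoured that direction.

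The inward rectifiers held both the strongest fall and 1 of the strongest rises. Kcnj2 (Kir2.1) had at most 6 counts in any EV library, and ran from 0 through 1.096 to 1.82 CPM there against 1.61 through 7.34 to 19.1 CPM in cells (log2 -3.12, SE 0.38, adjusted p = 2.77e-09). It was lower in EVs in 18 of 18 pairs and passed the count limit through the cell libraries alone. Kcnj16 (Kir5.1), which forms heteromeric channels with other Kir subunits, had 3.39, 11.3 and 14.6 CPM in EVs and 33.0, 47.7 and 58.9 CPM in cells. Its EV and cell libraries did not overlap (log2 -2.06, SE 0.12, adjusted p = 3.01e-17), and it was the one tested member with every EV library below every cell library, where the background was 14.8% of features. The 2 genes are neighbours on chromosome 11, Kcnj16 at chr11:110858843-110927617 and Kcnj2 at chr11:110956981-110967665 on GRCm39, 29363 bases apart and on the plus strand. Kcnj6 and Kcnj15, neighbours on chromosome 16 at 259804 bases, were both higher in EVs. Kcnj6 (GIRK2) ran from 1.51 through 5.67 to 15.3 CPM in EVs and from 0.31 through 0.81 to 1.24 CPM in cells (log2 3.09, SE 0.22, adjusted p = 3.28e-15). Kcnj15 (Kir4.2) ran from 2.11 through 6.03 to 48.8 CPM in EVs and from 0.29 through 0.42 to 2.09 CPM in cells (log2 4.18, SE 0.36, adjusted p = 3.94e-13), and passed the count limit through its EV libraries alone. The 3 highest Kcnj15 values, 45.7, 48.8 and 39.0 CPM, were those of the set 4 female culture at 0, 120 and 320 mg/dL, from 58, 44 and 23 counts, and the next highest was 13.3 CPM. The cell libraries of that culture held 0.56, 0.70 and 0.38 CPM. The log2 fold change of Kcnj15 was 3.48 without set 4 and 2.98 without the 6 shallow EV libraries, which include these 3.

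Auxiliary subunits were mixed. Kcnmb2, a beta subunit of BK channels, was 11.1-fold higher in EVs, at 10.6 ± 4.89 against 0.944 ± 0.291 CPM (SD, n = 18, log2 3.47, SE 0.17, adjusted p = 8.79e-20), with no overlap. Kcnip3 (KChIP3, also known as DREAM), a calcium-binding partner of Kv4 channels, was lower in EVs in 18 of 18 pairs, at 29.8 ± 5.87 against 48.9 ± 13.3 CPM (log2 -0.72, SE 0.11, adjusted p = 4.92e-07). Kcne1l, named Kcne5 in the annotation, a single-span subunit, had at most 7 counts in any EV library and was lower there, at 0.671 ± 0.752 against 2.58 ± 2.65 CPM (log2 -2.03, SE 0.54, adjusted p = 8.45e-04). In the 120 mg/dL libraries alone it was not called (adjusted p = 0.0820).

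Kcnip1 (KChIP1), another Kv4 partner, was the least steady member. Its cell libraries ran from 3.45 through 25.9 to 1649 CPM and its EV libraries from 18.8 through 39.9 to 631 CPM. The 5 highest cell libraries were the set 3 female culture at 320 and 120 mg/dL (1649 and 640 CPM), the set 5 female culture at 120 mg/dL (1134 CPM) and the male cultures of sets 5 and 3 at 320 mg/dL (404 and 172 CPM). All 5 were ethanol-exposed, and no control cell library was above 65.2 CPM. High values in cells did not go with high values in the matching EVs, which held 29.9, 35.4, 41.7, 40.6 and 45.3 CPM in the same order. In EVs the 4 highest Kcnip1 values were in the same 4 libraries as the low Kcnn3 values, with 80.4, 95.3 and 631 CPM in the set 4 female culture at 0, 120 and 320 mg/dL and 129 CPM in the set 3 male culture at 120 mg/dL. The 14 others lay between 18.8 and 54.3 CPM. The value of 631 CPM, from 372 counts, was matched by 36.8 CPM in its cells. Over all libraries the log2 fold change was -0.63 (SE 0.67, adjusted p = 0.387). It was 0.35 with culture and dose as a block (adjusted p = 0.640) and 1.27 in the control libraries alone, where it was called higher in EVs (adjusted p = 0.00937), and -1.59 under library totals and -1.39 with no filter on low counts, where it was called lower (adjusted p = 0.0234 and 0.0446). In cells its log2 fold change at 320 mg/dL was 3.46 (SE 1.49, adjusted p = 0.541), with 3 of 6 cultures higher and 3 lower.

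**Figure D3:**
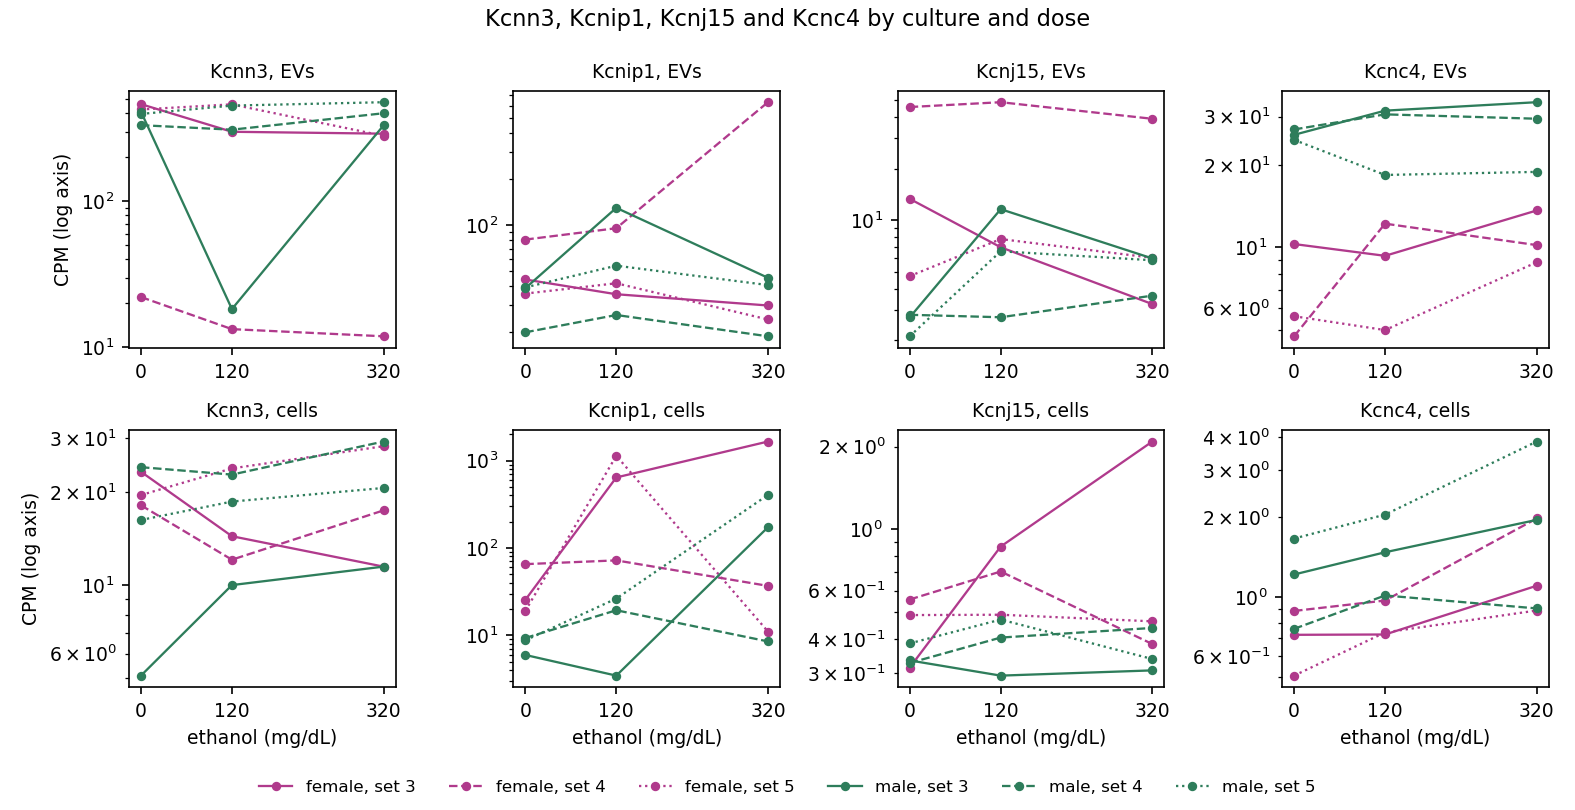
CPM (log axes, which differ between panels) of Kcnn3, Kcnip1, Kcnj15 and Kcnc4 against ethanol dose, EVs above and cells below, with 1 line for each of the 6 cultures. The set 4 female culture is low for Kcnn3 (22.1 CPM or less) and high for Kcnj15 (39.0 CPM or more) in EVs at every dose, and Kcnc4 is higher at 320 mg/dL than at 0 in the cells of all 6 cultures.

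Counted over every library, 15 tested members had each EV library above each cell library (background 9.04% of features) and 1 had each below. Of the 15, 3 (Kcng1, Kcng3 and Kcnj15) had passed the count limit through their EV libraries alone and so had to differ, and the other 12 passed it in both EVs and cells. Kcng3 is named outside the rule. The 15 also included Kcnk9, Kcnh5, Kcnj6, Kcnc4, Kcnb2 and Kcnmb2. The share of members higher in EVs fell with their level in cells, as it did for all features. Of the 23 tested members with a mean under 1 CPM in cells 18 were higher in EVs and 0 lower, where 82.2% of all features at that level were higher. The filter partly fixed that direction, since 8 of the 23 passed through their EV libraries alone and 7 passed in both EVs and cells. Of the 31 members between 1 and 10 CPM 22 were higher and 4 lower, where 42.0% of all features were higher and 30.1% lower. Of the 14 members at 10 CPM or more 4 were higher, 4 lower and 6 not called, where 23.5% of all features were higher and 60.8% lower. Across the 68 tested members Spearman's rho was -0.49 between the log2 fold change and the mean level in cells and 0.097 between the log2 fold change and gene span. The points share libraries, and the cell level is part of the fold change.

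Sensory receptor genes and low members gave the same direction. The 1463 olfactory and vomeronasal receptor genes summed to 66.3 through 116 to 330 CPM in EV libraries and to 14.7 through 22.0 to 26.4 CPM in cell libraries. The 8 of them that passed the filter were all higher in EVs. A gene that passed because it was high in EVs had to differ. How these 8 passed was not split by EVs and cells, so their direction may have been fixed by the filter. The 28 potassium channel members under the filter summed to 3.55 through 7.70 to 25.5 CPM in EVs and to 1.78 through 2.45 to 3.16 CPM in cells. Of the 28, 22 had at least 1 count in an EV library and 22 in a cell library. The defining microglial and endothelial markers were low in cells (summed medians of 0.457 and 1.18 CPM) and higher in EVs (2.52 and 3.85 CPM). The oligodendrocyte lineage list had a summed median of 19.6 CPM in cells and 23.6 CPM in EVs. For the neuronal list these were 641 and 279 CPM and for the astrocyte list 75.7 and 37.1 CPM. Most of the neuronal sum was Map2, with medians of 589 CPM in cells and 227 CPM in EVs. Tubb3 and Snap25 also had lower medians in EVs, while Dcx, Rbfox3, Syt1 and Stmn2 had higher ones. The part of other cell types and of the higher EV level of low genes in the potassium channel values was not tested. In bulk samples fewer cells of a type and less RNA per cell cannot be told apart.

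Levels of different genes can be set side by side only per length. Per kb of canonical transcript the 5 highest members in EVs were Kcnn3 (103 CPM per kb), Kcnc1 (50.2), Kcnh5 (37.1), Kcnip1 (34.7) and Kcnd3 (23.3), and the 5 highest in cells were Kcnip1 (104 CPM per kb), Kcnd2 (26.6), Kcnd3 (22.3), Kcnip3 (17.9) and Kcnj16 (12.7). The Kcnip1 means rest on its few high libraries. If introns were counted, the length that matters is the gene span, and the order changes: per kb of span Kcna2 (Kv1.2), named outside the rule, was first in EVs (17.8 CPM per kb) and in cells (3.96), and Kcnn3 followed Kcnc1 in EVs (1.93 after 3.77). On total CPM, 7 genes were among the 10 highest members in both EVs and cells. The 5 highest members made up 59.9% of the members' summed mean level in EVs and 64.7% in cells.

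**Figure D4:**
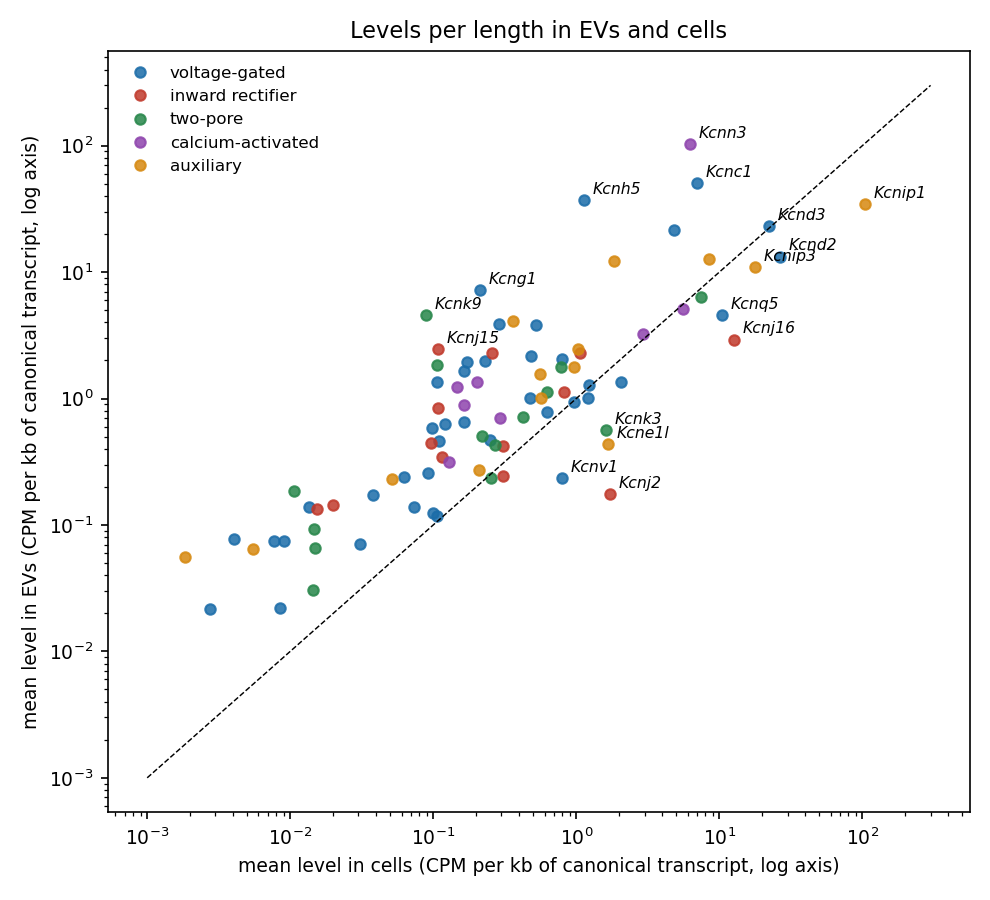
Mean level in EVs against mean level in cells, both in CPM per kb of canonical transcript on log axes, for the members with counts in both; colours mark the classes and the dashed line marks equal levels. Points far above the line are Kcnk9, Kcng1 and Kcnh5, and those below it include Kcnj2, Kcnv1, Kcnj16 and Kcnq5.

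Other genes of potassium handling, from lists chosen by function, were set beside the members. Of 30 such genes 21 were tested, of which 10 were higher in EVs, 6 lower and 5 not called. Their median log2 fold change was 0.05. Over all tested features 38.4% were higher and 42.2% lower, with a median of -0.08. How these genes passed the filter was not split by EVs and cells. Some of their directions may therefore have been fixed by it. The lists were not tested against each other or against the members. Of the 5 tested genes for proteins that bind channels 4 were higher, among them Cntnap2, which clusters Kv1 channels (60.6 ± 40.2 against 5.29 ± 1.42 CPM, log2 3.41, SE 0.17), and Dpp10, a Kv4 partner (46.1 ± 29.9 against 5.93 ± 1.56 CPM, log2 2.86, SE 0.22). Of 6 tested sodium-potassium ATPase subunits 1 was higher and 3 were lower, with Atp1b1 at 4.71 ± 2.42 against 28.4 ± 6.34 CPM (log2 -2.58, SE 0.16). Of 5 tested cotransporters of the Slc12 family 2 were higher and 2 lower, and the sodium-potassium-chloride cotransporter Slc12a2 was at 10.8 ± 4.50 against 64.8 ± 8.48 CPM (log2 -2.62, SE 0.13). Of the 5 other potassium-permeable channels 3 were higher and 1 lower, the lower one being the lysosomal channel Tmem175 (log2 -2.05, SE 0.12). Errors are SD with n = 18, and all of these named genes had an edgeR adjusted p under the threshold.

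The second question was whether ethanol changed the channel genes, in EVs and in cells, with culture as a block. With edgeR no member was called at either dose. In EVs at 120 mg/dL edgeR called 0 of 45 tested members (background 0.00842%), 2 (4.44%, where 6.26% of all features) had an unadjusted p under 0.05 and DESeq2 called 0. At 320 mg/dL in EVs it called 0 of 45 (background 0.0842%), 1 (2.22%, where 11.9% of all features) had an unadjusted p under 0.05 and DESeq2 called 0. DESeq2 gave an adjusted p for 14 members only in each of the EV comparisons. In cells at 120 mg/dL edgeR called 0 of 73 (background 0%), with 2 at an unadjusted p under 0.05 (2.74%, where 2.50% of all features) and 0 by DESeq2. In cells at 320 mg/dL it called 0 of 73 (background 0.0393%), with 13 at an unadjusted p under 0.05, which is 17.8% where 8.57% of all features had such a p. There DESeq2 called 2 of 70 (0.598% of all features), Kcnc4 and Kcnh7, of which Kcnh7 is named outside the rule. Kcnh7 (Erg3) was higher than its control in 6 of 6 cultures (edgeR log2 0.305, SE 0.07, adjusted p = 0.241). The medians over members were small, at log2 0.04 and 0.02 in EVs and 0.04 and 0.07 in cells for 120 and 320 mg/dL, and 39 and 42 of 45 members in EVs and 69 and 68 of 73 in cells stayed within 0.5 of 0. The median SE was 0.27 in EVs at both doses, and 0.18 and 0.19 in cells.

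**Figure D5:**
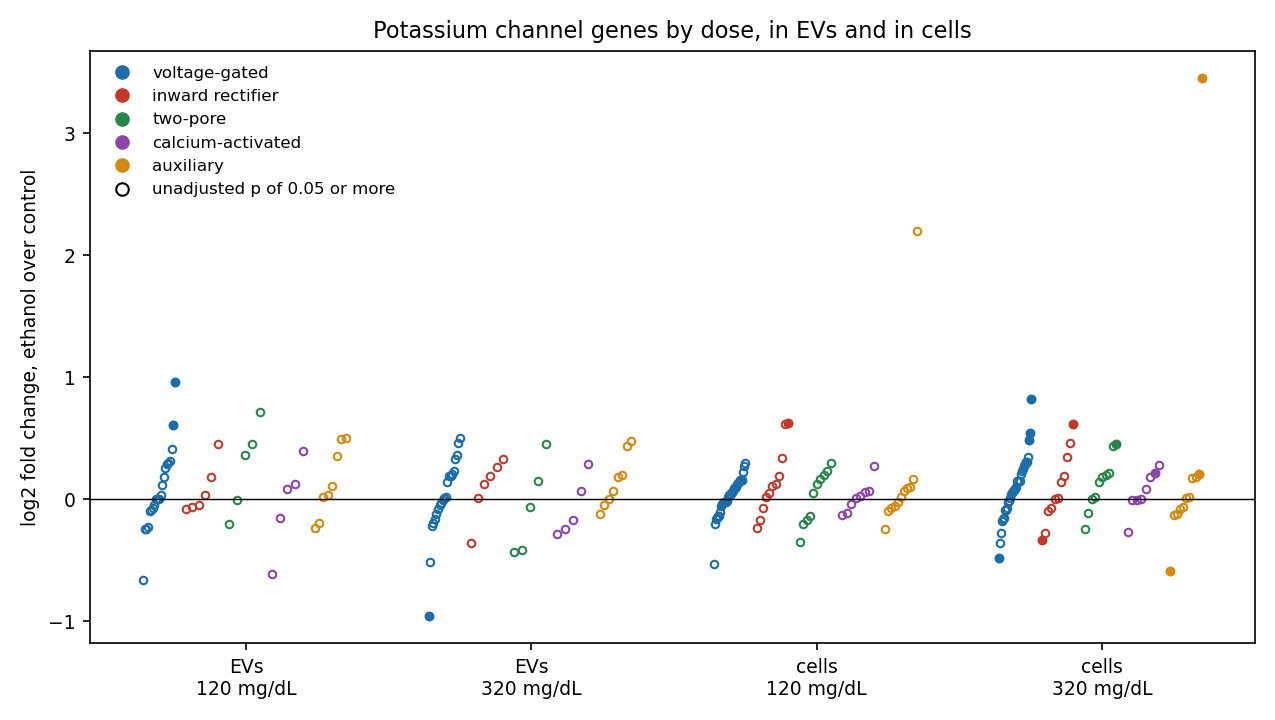
Log2 fold change of ethanol over control (vertical axis) for each tested member, by class, in EVs and in cells at 120 and 320 mg/dL; filled points have an unadjusted p under 0.05. Most points lie within 0.5 of 0 and none was called by edgeR, and the 2 points far above the rest in cells, at 2.20 and 3.46, are Kcnip1.

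Classes were not tested against each other by dose. In EVs the two-pore median was 0.365 at 120 mg/dL and the other class medians lay between -0.01 and 0.09. At 320 mg/dL all 5 lay between -0.17 and 0.16. In cells they lay between 0.02 and 0.11 at 120 mg/dL and between 0.01 and 0.16 at 320 mg/dL. In EVs at 120 mg/dL the member with the smallest p was Kcnq1, at 8.90 ± 7.34 CPM against 4.60 ± 3.49 CPM in control EVs (SD, n = 6), higher in 5 of 6 cultures (log2 0.96, SE 0.39, edgeR adjusted p = 0.791). In cells at 120 mg/dL it was Kcnj6 (GIRK2), at 1.01 ± 0.197 against 0.703 ± 0.249 CPM, higher in 5 of 6 cultures (log2 0.63, SE 0.26, edgeR adjusted p = 1.0).

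In cells at 320 mg/dL the member with the smallest p was Kcnc4. Its control libraries ran from 0.506 through 0.822 to 1.66 CPM, those at 120 mg/dL from 0.722 through 0.991 to 2.04 CPM, and those at 320 mg/dL from 0.889 through 1.53 to 3.85 CPM. Kcnc4 was higher than in the control of the same culture in 6 of 6 cultures at each dose, although the ranges overlapped because cultures differed in level. At 320 mg/dL the log2 fold change was 0.82 (SE 0.15, edgeR adjusted p = 0.0943), with DESeq2 it was 0.85 (adjusted p = 0.00201), and over the other alternatives the adjusted p ran from 0.0888 to 1.0. At 120 mg/dL it was 0.27 (SE 0.15, edgeR adjusted p = 1.0). In EVs Kcnc4 was at 16.3 ± 10.6, 17.8 ± 11.1 and 19.1 ± 10.4 CPM (SD, n = 6) at 0, 120 and 320 mg/dL, with log2 fold changes of 0.04 (SE 0.18) and 0.23 (SE 0.17). Kcnb2 was not called at either dose. In the same order of doses it was at 9.60 ± 9.95, 10.3 ± 5.34 and 7.10 ± 2.80 CPM in EVs. In cells it was at 0.759 ± 0.174, 0.828 ± 0.188 and 0.789 ± 0.358 CPM.

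The difference between EVs and cells was also compared between doses, with each EV and cell pair as a block. At 120 mg/dL edgeR called 0 of 73 members (background 0.00534%), with 0 at an unadjusted p under 0.05 and 0 by DESeq2. At 320 mg/dL it called 0 of 73 (background 0%), with 2 at an unadjusted p under 0.05 and 0 by DESeq2. The smallest p at 120 mg/dL was that of Kcnq1 (log2 difference 0.83, SE 0.42, adjusted p = 1.0). The EV-to-cell values of single doses, given side by side, had the same sign at every dose for the members listed next. They were named from values over all doses together, so that agreement was largely set by the choice. The log2 fold change of Kcnk9 was 5.42, 5.97 and 5.49 in the libraries at 0, 120 and 320 mg/dL, that of Kcnn3 4.27, 3.95 and 3.83, that of Kcnh5 4.66, 5.197 and 5.05, and that of Kcnj16 -2.15, -2.16 and -1.89.

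Female and male cultures were compared on counts summed over the 3 doses of a culture, 3 against 3. In EVs edgeR called 0 of 60 members (background 0%), with 15 at an unadjusted p under 0.05 (25.0%, where 15% of all features), 14 of them higher in female EVs, and 1 of 61 by DESeq2 (0.184% of all features). The direction of all features at that unadjusted p was not counted. Among all features called by DESeq2, 20 were higher and 8 lower in female EVs. With no filter on low counts these were 525 and 119, and with all libraries as separate 988 and 666. Under library totals they were 14 and 8, and under median-of-ratios scaling 0 and 1. The median log2 fold change was 0.35 over members and 0.04 over all features. The EV libraries with the fewest counts were those of the set 4 female culture, the set 3 female control and the ethanol-exposed set 3 male culture. Depth was thus uneven between the sexes, and its part in the direction was not tested. In cells edgeR called 0 of 79 (background 0.0334%), with 5 at an unadjusted p under 0.05 (6.33%, where 6.67% of all features) and 1 of 77 by DESeq2 (0.834% of all features). The member that DESeq2 called in EVs was Kcnc4, with culture means of 11.1, 9.03 and 6.46 CPM in the female and 30.4, 29.0 and 20.6 CPM in the male EVs of sets 3, 4 and 5 (edgeR log2 -1.62, SE 0.29, adjusted p = 0.315). In cells its culture means overlapped, at 0.848, 1.28 and 0.710 CPM in female and 1.55, 0.892 and 2.51 CPM in male cultures. The member that DESeq2 called in cells was the leak channel Kcnk2 (TREK-1), named outside the rule, with 48.8, 35.1 and 40.4 CPM in female and 10.7, 12.3 and 14.1 CPM in male cells (edgeR log2 1.53, SE 0.18, adjusted p = 0.128). Its EVs did not show that split, at 16.2, 17.8 and 30.7 CPM in female and 8.02, 16.9 and 48.4 CPM in male cultures. Kcnb2 was at 12.3 ± 6.84 CPM in female and 5.68 ± 0.396 CPM in male EVs (SD over 3 cultures, edgeR log2 1.32, SE 0.45, adjusted p = 0.315). In cells its culture means were 1.03, 1.02 and 0.94 CPM in female and 0.52, 0.67 and 0.59 CPM in male cultures, which did not overlap (edgeR log2 0.63, SE 0.23, adjusted p = 0.701).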

How the data were processed

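Total RNA of 18 EV and 18 cell samples was depleted of ribosomal RNA and sequenced from a stranded kit. The authors deduplicated and trimmed the reads (Trimmomatic), aligned them with STAR (mm39 build) and used HTSeq for counting, and the deposited files hold 1 raw count for each gene and library. The feature type and strand setting of the counting are not given in the sources used here. Totals ran from 959217 to 5509952 counts per EV library and from 26566061 to 55282322 per cell library, so EV values of low members rest on few counts. The count of features was 40205. Genes with a count limit of 10 in enough libraries and 15 in all were tested with edgeR 4.0.16 (quasi-likelihood, trimmed-mean scaling, R 4.3.3), with Benjamini-Hochberg adjustment over all tested features, and the scripts were tested on simulated data. EVs against cells was fitted on 36 libraries with sex and dose as covariates, ethanol within EVs or cells with culture as a block, the EV-to-cell difference with each pair as a block, and sex on sums over doses. Standard errors were the log2 fold change over the root of its F statistic. The EVs against cells test treats 3 doses of a culture as separate libraries, so its p-values are too small where a culture's libraries resemble each other, and sums over doses were an alternative, as were DESeq2 1.42.0, other scalings, no filter, thinning, and leaving out pregnancies. CPM are trimmed-mean scaled. EV and cell libraries of a culture and dose come from the same culture, which is where the pairing comes from, and deviations from the group means correlated with a median of 0.0885 over 18 pairs. Libraries of a culture at different doses correlated with at least 0.217 in EVs and 0.387 in cells. Canonical transcript lengths, gene spans and coding sequences came from GENCODE vM39 on GRCm39, which is the build the authors call mm39, and all 96 members matched. The authors tested with DESeq2. The text names the members with the largest and smallest fold change in each class, the 5 with the highest level per kb in EVs and in cells, up to 8 lower in EVs, those called or with the smallest p in each ethanol comparison, and Kcnb2 and Kcnc4. The members and lists were chosen with earlier results of these data known. A few named items are not reported here.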

Additional observations from a re-analysis of the deposited data

Results flagged for a closer look

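For the 23 members that the rule picks, the highest or lowest library of each group of 6 (EVs or cells at a dose) was compared with the gap to its nearest neighbour, in 138 groups, and 21 values stood apart. Chance alone marks about 1 in 20 groups. The same cultures enter at each dose, so the groups are not independent and that rate is only a rough guide. No cause was tested.

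In EVs of the set 4 female culture, Kcnj15 stood above the other cultures at 0, 120 and 320 mg/dL (45.7, 48.8 and 39.0 CPM), Kcnn3 stood below them in the control (22.1 CPM, the others 332 to 462), and at 320 mg/dL Kcnip1 (631 CPM) and Kcnk3 (11.9 CPM, 7 counts) were high and Kcnj16 was low (3.39 CPM, 2 counts). These 3 EV libraries were among the 6 with the fewest counts. The other EV values were Kcng1 in the set 4 male control (83.1 CPM), Kcnk9 in the set 3 male culture at 120 mg/dL (179 CPM), Kcnd2 in the set 5 female culture at 120 mg/dL (164 CPM), and Kcnh5 in the set 5 male culture at 0 and 120 mg/dL (331 and 416 CPM).

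In cells, Kcnip1 stood apart in the set 4 female control (65.2 CPM) and in the set 3 female culture at 320 mg/dL (1650 CPM, the others 8.51 to 404). The set 3 female culture was also high for Kcnj15 at 320 mg/dL (2.09 CPM, 53 counts) and for Kcnc1 in the control (80.8 CPM). Kcnv1 was high in the set 3 male control (7.87 CPM), Kcnj16 low in the set 3 male culture at 320 mg/dL (33.0 CPM), Kcnk9 high in the set 4 male culture at 320 mg/dL (3.62 CPM), Kcnc4 high in the set 5 male culture at 320 mg/dL (3.85 CPM) and Kcnmb2 low in the set 5 male culture at 120 mg/dL (0.722 CPM).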

How the results depend on the processing

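The 44 members higher and 8 lower in EVs (38.4% and 42.2% of all features) became 29 and 19 under library totals (22.5% and 60.7%). They became 49 and 19 with no filter on low counts (40.7% and 30.2%). After thinning to the smallest total they became 8 and 2 of the 17 members that could be tested (39.5% and 39% of all features). In the 120 mg/dL libraries alone 5 were lower (33.5% of all features). The members' median log2 fold change was 1.05, against -0.08 over all features. It became 0.21 under library totals (all features -0.88), 0.39 with no filter (0.46) and 0.52 after thinning (-0.008). With DESeq2 it was 1.11, against 1.73 over all features. With no filter and with DESeq2 the members were thus below all features. Thinning left 7 named members called of 10 tested. Leaving out a pregnancy gave 42 to 44 higher (35.3% to 37.6% of all features), 8 to 9 lower (39.9% to 40.2%) and a median of 0.99 to 1.18. Kcnn2 ran from -0.32 to 0.13 and Kcnd3 from -0.13 to 0.19 over these. Kcnn2 moved to -1.003 under library totals and Kcnd3 turned to -0.72 there, -0.60 with no filter and -0.084 without the shallow EV libraries, and Kcnip1 turned to 0.35 with the replicate block and 1.27 in control libraries alone. With the replicate block 44 were higher and 8 lower (38.1% and 41.8% of all features), and summed over doses with the block 39 and 8 (33.3% and 36%). Dropping the culture block left 0 members called for ethanol, and a pregnancy block left 0 for sex, so pairing changed no other of these counts. DESeq2 called 2 members in cells at 320 mg/dL, 1 for sex in EVs and 1 for sex in cells. No filter gave 10 of 90 for sex in EVs (2.18% of all features), and counting all 18 libraries as separate gave 12 of 60 in EVs (11.1% of all features) and 4 of 79 in cells (5.13% of all features). The causes were not tested, except that thinning tests fewer genes. Runs on 120 or 320 mg/dL libraries alone and without shallow libraries were chosen after seeing the data. EV members with few counts set the limit of what could be seen.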
